A study of Mus musculus with 24 samples.

Results

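Expression of 10 genes was followed through 24 mouse brain libraries: 9 genes of the choroid plexus (Ttr, Kl, Folr1, Clic6, Aqp1, Slc4a5, Enpp2, Prlr and Otx2) and Col9a3, a collagen gene whose level was lower in cerebellum of Polr3a mutants. The genes were taken by name from the deposited count tables, which list 54532 genes, and all 10 were found. The set was chosen by measured values, the lower levels of Col9a3 and of choroid plexus genes in mutant cerebellum, so the mutant and wild type values of the 10 genes in that tissue are described here without a test. The question followed was whether Col9a3 went up and down with the choroid plexus genes from one library to the next.

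The study compared C57BL/6J mice carrying a Polr3a mutation switched on by tamoxifen at postnatal day 28 (P28) with wild type mice given the same drug. Polyadenylated RNA was extracted with Trizol and sequenced from whole pieces of tissue of mice fed freely. The 6 groups of 4 libraries were cerebrum at P42 (2 males and 2 females of each genotype), cerebellum at P42 (2 males and 2 females among mutants, 3 males and 1 female among wild types) and cerebrum at P75 (4 males of each genotype). The Cre driver, and whether wild types carried Cre, were not stated. It was also not stated that each library came from its own animal, so the p-values measure the spread between libraries, which may be technical.

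The choroid plexus is a fold of secretory epithelium on a core of blood vessels inside the brain ventricles. Its epithelial cells make the cerebrospinal fluid by moving ions and water from blood to ventricle, and they secrete carrier proteins and hormones into the fluid. A pure set of these genes is rare in a piece of cerebrum or cerebellum, because the plexus hangs loosely in the ventricle and can be kept or lost when the brain is cut. Type IX collagen, to which Col9a3 contributes the alpha 3 chain, is best known as a partner of type II collagen in cartilage.

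Libraries held 13.8 to 23.2 M counts. Polr3a itself was at 29.4 to 58.3 counts-per-million (CPM) over all libraries, with close means in mutants and wild types of each tissue and age (52.0 and 51.2 CPM in cerebellum). Esr1, singled out after its values were seen, lay at 40.7 to 136 CPM in mutants and 1.49 to 9.36 CPM in wild types. The tissue labels matched the granule cell gene Gabra6, at 162 to 503 CPM in cerebellum and 0 to 11.7 CPM in cerebrum. Among the 8 cerebrum libraries of P42, wild type replicate 1 and mutant replicate 4 held RNA of the cerebellar gene Cbln3 (34.8 and 16.3 CPM, against 0.216 to 1.51 CPM in the other 6). In cerebellum, mutant replicate 1 stood apart by its low levels of Ttr, Kl, Folr1, Aqp1, Prlr, Slc4a5 and Enpp2, while Otx2 was not low there.

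In wild type cerebellum the order of abundance per transcript length (RPKM, the CPM per kilobase, mean over 4 libraries) was led by Ttr at 1336 RPKM, followed by Enpp2 at 201 RPKM. The other 8 genes were far lower: Clic6 had 13.0 RPKM, Col9a3 12.9, Kl 9.66, Folr1 6.05, Otx2 4.83, Aqp1 4.34, Slc4a5 3.99 and Prlr 1.21. Per length, Col9a3 was thus as abundant in this tissue as Clic6, a chloride channel gene of the choroid plexus epithelium.

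Upstream sequence from RefSeq (table of build GRCm38.p6) was matched for 5 of the 10 genes (Kl, Aqp1, Slc4a5, Otx2 and Prlr, 10 start sites in all), and not for Ttr, Folr1, Clic6, Enpp2 and Col9a3. It is shown because Kl, Aqp1, Slc4a5 and Prlr varied together with Ttr in the cerebellum libraries described below whereas Otx2 did not. The first pair of lines gives the 250 bases before the start of Kl (chr5:150952357-150952606, plus strand) and of Aqp1 (chr6:55336049-55336298, plus strand), and capitals mark the GC box GGGCGG or its reverse complement CCGCCC. The second pair gives 30 bases around a TATA box (TATAAA or TTTATA in capitals) of Slc4a5 (chr6:83237236-83237265, plus strand) and around the core of the site bound by OTX proteins (TAATCC or GGATTA in capitals) before a start of Otx2 (chr14:48665303-48665332, minus strand).
Kl: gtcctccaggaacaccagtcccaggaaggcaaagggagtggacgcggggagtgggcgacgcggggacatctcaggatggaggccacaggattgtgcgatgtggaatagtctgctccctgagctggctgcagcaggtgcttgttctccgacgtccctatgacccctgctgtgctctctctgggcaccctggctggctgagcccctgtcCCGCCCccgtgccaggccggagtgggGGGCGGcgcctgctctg
Aqp1: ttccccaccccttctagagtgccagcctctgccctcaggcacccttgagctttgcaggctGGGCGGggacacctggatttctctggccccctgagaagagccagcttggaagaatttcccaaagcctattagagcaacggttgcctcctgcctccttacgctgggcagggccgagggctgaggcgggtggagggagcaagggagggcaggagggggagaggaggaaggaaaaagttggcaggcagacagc
Slc4a5: ccagccccagccTTTATAaggagcctgaga
Otx2: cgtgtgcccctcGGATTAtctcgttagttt
Both strands of the 250 bases before each start were searched for each motif by exact match, and the matches in capitals do not overlap each other. The GC box was before 3 of the 10 starts (Kl, Aqp1 and Slc4a5), and before 32.7% of the 32851 starts in the table. The TATA box was before 2 starts (Otx2 and Slc4a5), against 12.4% of all starts. These matches lay 186 bases before the start for Otx2 and 121 bases for Slc4a5. The OTX core was before 1 start (Otx2, 205 bases away), against 6.25% of all starts. The starts of Slc4a5 and Otx2 lie inside the span listed for the gene. Prlr, which also varied with Ttr, had no match to any of these motifs before its starts. A match describes the letters and does not show a bound site.

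RNA of the secreted proteins of the plexus was lowest in mutant replicate 1 of the cerebellum and was lower in the other 3 mutants than in wild types. Ttr (chr18:20665250-20674324, mm10) encodes transthyretin, which carries thyroid hormone and retinol-binding protein in cerebrospinal fluid. In wild type cerebellum its level was 1198, 1501, 1634 and 2184 CPM in replicates 1 to 4, and in mutants it was 12.8, 769, 673 and 908 CPM. Every mutant lay below every wild type, and the log2 fold change was -1.72 ± 0.89 (SE, mutant minus wild type), or -1.15 without mutant replicate 1.

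Kl (chr5:150952607-150993817) encodes Klotho, the co-receptor of FGF23 that is also shed as a soluble hormone. It had 66.4, 101, 86.6 and 107 CPM in wild types and 1.42, 32.2, 28.7 and 32.0 CPM in mutants. The groups did not overlap, and the 3 mutants other than replicate 1 sat close together at less than any wild type (log2 fold change -2.12 ± 0.67, -1.57 without replicate 1). Enpp2 (chr15:54838901-54952892) encodes autotaxin, the enzyme that makes lysophosphatidic acid. Its wild types had 1005, 1203, 1197 and 1247 CPM and its mutants 104, 903, 608 and 762 CPM, again without overlap (-1.05 ± 0.54, and -0.56 without mutant replicate 1). Oligodendrocytes also express Enpp2, and 12 oligodendrocyte genes summed to 6580 CPM in mutant replicate 1, 10637 to 16337 CPM in the other mutants and 9018 to 14144 CPM in wild types. The part of oligodendrocytes in the Enpp2 values was not tested. In bulk tissue, fewer cells of a type and less RNA per cell cannot be told apart.

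The transport and receptor genes had the same low library. Aqp1 (chr6:55336432-55348555), the water channel of the apical membrane, had 8.86, 11.3, 11.2 and 14.2 CPM in wild type cerebellum and 0.640, 5.86, 3.49 and 4.8 CPM in mutants. Folr1 (chr7:101858331-101870788), the folate receptor alpha that brings folate into cerebrospinal fluid, had 11.8, 16.5, 11.3 and 16 CPM in wild types and 0.0711, 4.76, 3.44 and 7.91 CPM in mutants. The lowest Folr1 value was a single count. Neither gene's groups overlapped (log2 fold changes -1.68 ± 0.51 for Aqp1 and -2.04 ± 0.73 for Folr1, and -1.26 and -1.46 without mutant replicate 1).

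Slc4a5 (chr6:83219828-83304945), a sodium bicarbonate cotransporter of the apical membrane, had 17.1, 22.8, 24.7 and 28 CPM in wild types and 1.56, 15.5, 10.9 and 21.0 CPM in mutants, with mutant replicate 4 inside the wild type range (-1.11 ± 0.57, and -0.61 without mutant replicate 1). Clic6 (chr16:92485736-92541243) had 33.6 to 59.9 CPM in wild types and 11.3 to 35.8 CPM in mutants, and 2 mutants lay inside the wild type range (-0.99 ± 0.34, and -0.67 without mutant replicate 1). Prlr (chr15:10177238-10349180), the prolactin receptor, which is abundant in choroid plexus epithelium, had 13.2 to 21.8 CPM in wild types and 0.782, 14.9, 10.4 and 18.5 CPM in mutants. Without mutant replicate 1 the Prlr difference shrank from -0.83 ± 0.72 to -0.16, so that 1 library held most of it.

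Otx2 and Col9a3 were lower in the mutants but not lowest in mutant replicate 1. Otx2 (chr14:48657677-48673819) encodes a homeodomain transcription factor that is needed to form and keep the choroid plexus. Its level was 22.4, 18.6, 14.6 and 26.0 CPM in wild type cerebellum and 13.1, 11.4, 11.6 and 10.9 CPM in mutants. The highest of the 4 mutants was replicate 1, the library in which Ttr was at 12.8 CPM. The log2 fold change was -0.82 ± 0.19, and -0.93 without that library.

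Col9a3 (ENSMUSG00000027570, chr2:180597790-180622189, plus strand) had 41.9, 43.1, 47.6 and 66.0 CPM in wild types and 20.1, 18.6, 32.2 and 24.2 CPM in mutants. All 4 mutants were below all wild types, and replicate 1 lay between the other mutants. The log2 fold change was -1.20 ± 0.12, and -1.22 without mutant replicate 1. Of the 10 genes, 7 had groups that did not overlap in this tissue. There, 1.65% of 17616 genes had all mutants below all wild types and 1.74% all above (3.39% in all). As the genes were picked with this contrast in view, that count is a description.

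**Figure D1:**
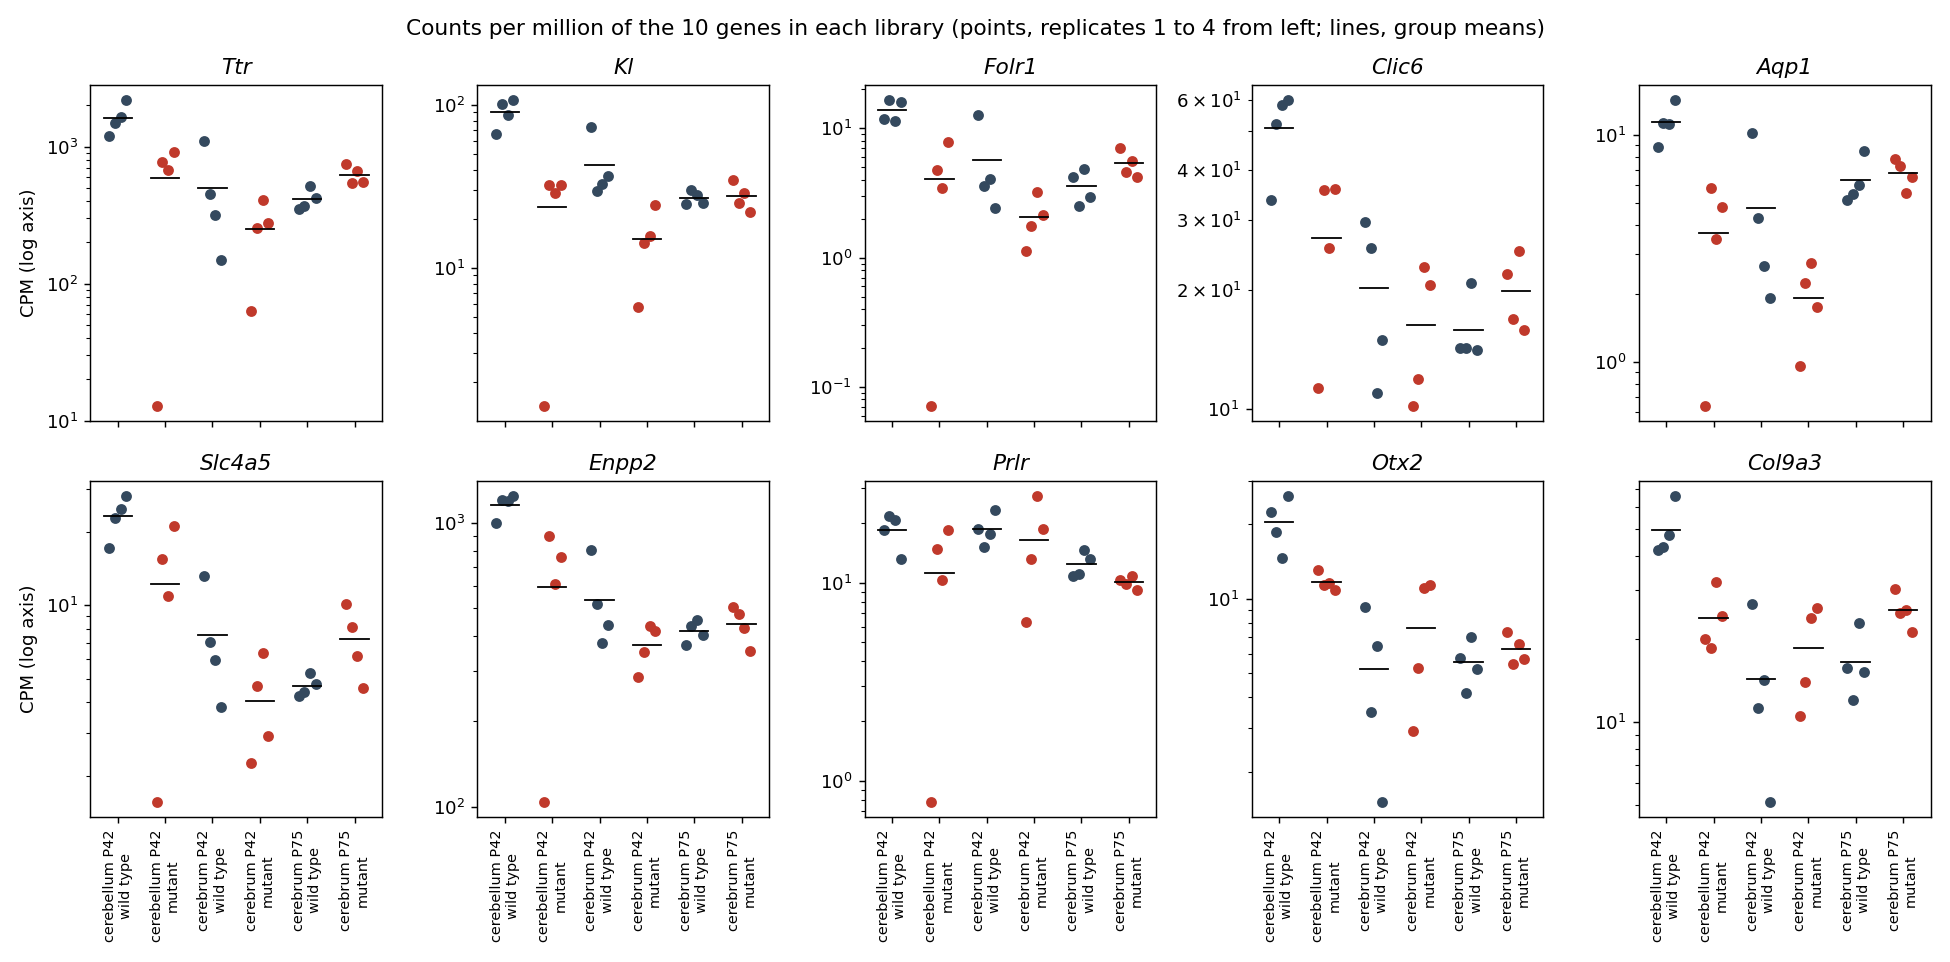
Each panel shows 1 gene, with CPM on a log axis for the 4 libraries of each tissue, age and genotype (blue, wild type; red, mutant; lines, group means). In mutant cerebellum the leftmost point, replicate 1, is the lowest mutant for 8 genes (Ttr at 12.8 CPM against 673 to 908 CPM) but not for Otx2 or Col9a3. Of the 8 it is nearest to the others for Clic6 (11.3 CPM against 25.4 to 35.8 CPM).

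Most other genes of the choroid plexus also had lower values in mutant cerebellum. Of 40 further markers of its epithelium, 38 passed the filter on low counts in cerebellum and 36 were lower in mutants, with a median log2 fold change of -0.97, against a median of 0.01 over all genes tested. Without mutant replicate 1, 34 of 39 were lower, with a median of -0.73. Their summed level was 2102, 3374, 2484 and 3304 CPM in mutants and 2858 to 3123 CPM in wild types. By the sum, mutant replicates 2 and 4 thus lay above every wild type. The sum did not follow Ttr, however. In cerebrum at P42 it was 2394 CPM in mutant replicate 1 and 2431 CPM in wild type replicate 1, with Ttr at 63.5 and 1095 CPM. It is therefore not read as the amount of choroid plexus RNA. None of the 38 was called by edgeR at an adjusted p under 0.05, where 0.0114% of all genes were (2 of 17616, 1 higher and 1 lower, 0.00568% each; 818 had an unadjusted p under 0.05, and DESeq2 called 25). Msx1, a homeobox gene, had -1.56 ± 0.26, Slc13a4, a sulfate transporter gene, had -0.93 ± 0.21 and Pcolce, an enhancer of procollagen processing, had -0.98 ± 0.20. The partners of Col9a3 were nearer to 0: Col9a2 had -0.36 ± 0.17, Col9a1 0.01 ± 0.59 and Col2a1 -0.46 ± 0.30. Of 12 cartilage matrix genes tested, 9 were lower in mutant cerebellum, with a median of -0.16, and none was called.

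Markers of neighbouring cells were also uneven between the cerebellum groups. The sum of 16 genes of ciliated ependymal cells, which line the ventricles, was 139, 145, 162 and 112 CPM in mutants and 154 to 181 CPM in wild types. The sum of 12 genes of cerebellar neurons was 7283, 3275, 6636 and 2127 CPM in mutants and 4120 to 6271 CPM in wild types, so mutant replicate 1 was the highest of the 8 libraries. Meningeal genes (18, summed) were at 2803 CPM in mutant replicate 4 and at 919 to 1444 CPM in the other 7 libraries, and hemoglobin genes (8, summed) were at 66.5 to 101 CPM in mutants and 95.1 to 185 CPM in wild types. The part of these cells in the values of the 10 genes was not tested.

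Expressed per 1000 reads of Ttr, Col9a3 did not separate the mutants. Wild type cerebellum had 28.7 to 35.0 Col9a3 reads per 1000 Ttr reads, and mutant replicates 2 to 4 had 24.2 to 47.9, a range that enclosed all wild types. Mutant replicate 1, with Ttr at 12.8 CPM and Col9a3 at 20.1 CPM, had 1567. For Kl the same ratio was 48.8 to 67.1 in wild types and 35.3 to 42.7 in mutant replicates 2 to 4, below every wild type, and it was 111 in replicate 1. Otx2 had 8.94 to 18.7 reads per 1000 Ttr reads in wild types and 12 to 17.2 in mutant replicates 2 to 4, but 1022 in replicate 1.

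**Figure D2:**
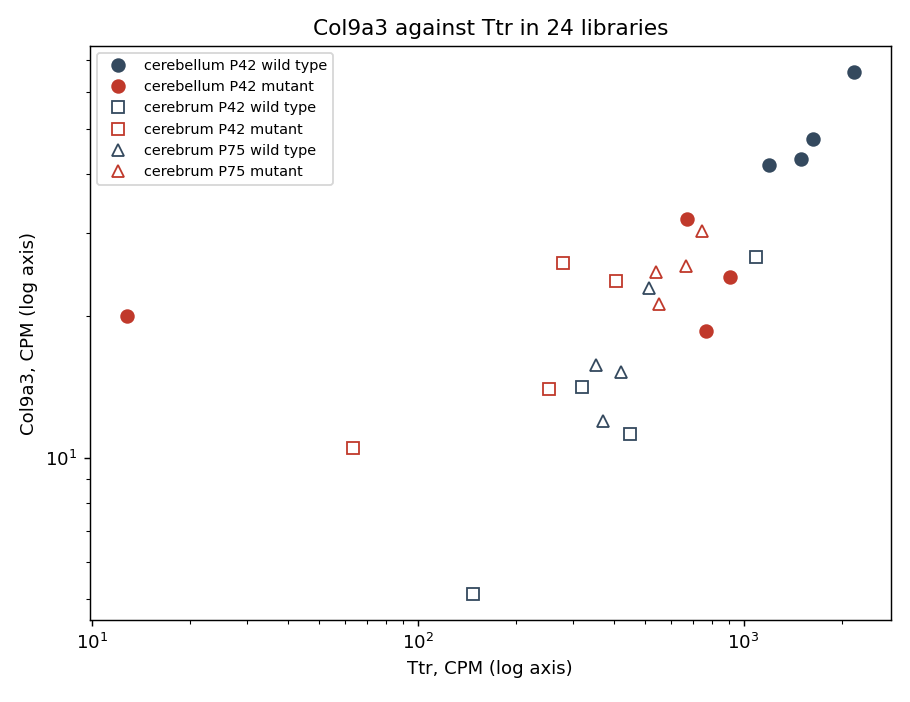
Each point is 1 of the 24 libraries, with the Ttr level (CPM, log axis) on the horizontal axis and the Col9a3 level (CPM, log axis) on the vertical axis; filled circles are cerebellum at P42, open squares cerebrum at P42 and open triangles cerebrum at P75 (blue, wild type; red, mutant). Mutant cerebellum replicate 1 lies alone at the left, with 12.8 CPM of Ttr and 20.1 CPM of Col9a3.

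In cerebrum at P42 none of the 10 genes differed between genotypes past the threshold in edgeR with the filter on low counts. Col9a3 and Otx2 had higher mutant means, where the other 8 genes had lower ones. Col9a3 had 26.8, 11.2, 14.1 and 5.13 CPM in wild types and 10.5, 14.0, 23.8 and 25.9 CPM in mutants. The groups overlapped fully (log2 fold change 0.42 ± 0.44, adjusted p = 0.681 in edgeR's quasi-likelihood test). Otx2 had a similar layout, with 9.29, 3.50, 6.45 and 1.51 CPM in wild types and 2.93, 5.23, 11 and 11.4 CPM in mutants (0.66 ± 0.55, adjusted p = 0.596 in edgeR). For both genes mutant replicates 3 and 4 were the highest mutants, and wild type replicate 1 was the highest wild type.

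Ttr had 1095, 449, 320 and 148 CPM in wild types and 63.5, 254, 406 and 279 CPM in mutants. It was highest in wild type replicate 1 and lowest in mutant replicate 1, and the groups overlapped (-0.97 ± 0.67, adjusted p = 0.535 in edgeR). Kl was the 1 gene of the 10 whose groups did not overlap, with 72.8, 29.7, 32.6 and 36.6 CPM in wild types against 5.74, 14.2, 15.7 and 24.2 CPM in mutants, and 1.88% of all genes had every mutant below every wild type (4.78% had every mutant above, 6.66% either). Its log2 fold change of -1.62 ± 0.44 had an adjusted p of 0.339 in edgeR and of 0.00280 in DESeq2, which called it. So did edgeR without a filter on low counts (adjusted p = 2.8e-15). Those 2 settings called 206 and 1312 genes in all, against 3 in edgeR with the filter. Ttr, Folr1, Aqp1, Enpp2 and Slc4a5 were also called lower, each in 1 alternative setting. In edgeR with the filter none of the 10 genes was called, where 0.0165% of genes were (3 of 18205). An unadjusted p under 0.05 was found for 2278 genes. Folr1 (-1.37 ± 0.47), Aqp1 (-1.30 ± 0.52), Slc4a5 (-0.92 ± 0.40) and Enpp2 (-0.59 ± 0.23) had lower means in mutants, with adjusted p from 0.369 to 0.395 in edgeR. Clic6 (-0.39 ± 0.35) and Prlr (-0.27 ± 0.36) were closer to 0, with adjusted p of 0.626 and 0.741 in edgeR. Without wild type replicate 1, which held most cerebellar RNA, the lower values came nearer to 0 (-0.37 for Ttr, -1.21 for Kl, -0.81 for Folr1, -0.67 for Aqp1, -0.30 for Enpp2, -0.58 for Slc4a5 and -0.06 for Clic6) and Col9a3 and Otx2 had 0.78 and 0.94. Without mutant replicate 4, Col9a3 had 0.10 and Otx2 0.25, and the other 8 genes stayed below 0 (-1.92 for Kl to -0.35 for Prlr). None of these values passed the threshold in edgeR.

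Among the further choroid plexus markers at P42, 28 of 37 tested were lower in mutant cerebrum with a median of -0.31, and none was called. Their median was -0.12 without wild type replicate 1 and -0.36 without mutant replicate 4. Car12, a carbonic anhydrase gene, had -1.21 ± 0.17 (adjusted p = 0.108 in edgeR) and Kcnj13, an apical potassium channel gene, had -1.57 ± 0.43 (adjusted p = 0.337 in edgeR). Col9a2 (1.12 ± 0.41) and Col2a1 (1.13 ± 0.41) were higher in mutants, each with an adjusted p of 0.374 in edgeR. Mutant replicates 3 and 4 were also the libraries with more RNA of deep brain regions: 18 genes of thalamus, hypothalamus and midbrain, listed after the data were seen, summed to 1751 and 1565 CPM there, to 868 and 949 CPM in mutant replicates 1 and 2, and to 324 to 635 CPM in wild types. The oligodendrocyte sum was 13004 and 13060 CPM in these 2 libraries and 5997 to 9029 CPM in the other 6. The ependymal sum was 176 and 165 CPM in them and 92.4 to 130 CPM in the other 6. The part of tissue composition in the Col9a3 and Otx2 values was not tested.

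In cerebrum at P75 Ttr and Col9a3 rose together in mutants, while the other 8 genes did not pass the test. Ttr had 354, 371, 514 and 422 CPM in wild types and 743, 540, 666 and 549 CPM in mutants. All mutants were above all wild types (log2 fold change 0.48 ± 0.12, adjusted p = 0.0149 in edgeR). Such a separation upward was seen for 16.8% of all genes (21.4% in either direction), and 1 of the 10 had it.

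Col9a3 had 15.7, 12, 22.9 and 15.2 CPM in wild types and 30.3, 24.8, 25.5 and 21.2 CPM in mutants. Of the mutants, 3 were above every wild type and replicate 4 was below wild type replicate 3 (0.52 ± 0.16, adjusted p = 0.0413 in edgeR). The sign was thus opposite to that in cerebellum at P42, a difference that was not tested. With 2 of 10 genes called, the background was 14.5% (2543 of 17523 genes, 7.77% higher and 6.75% lower). The Ttr call was lost without mutant replicate 1 (adjusted p = 0.0510 in edgeR) or wild type replicate 2 (0.0833), and that of Col9a3 without any library except mutant replicate 4 and wild type replicate 3 (0.0693 to 0.132).

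The remaining choroid plexus genes at P75 spread to both sides of 0. Prlr was at 10.8, 11, 14.6 and 13.2 CPM in wild types and at 10.4, 9.88, 10.9 and 9.19 CPM in mutants, with only 1 mutant above the lowest wild type. It missed the threshold in edgeR (-0.41 ± 0.13, adjusted p = 0.0514) and passed in DESeq2 (adjusted p = 0.0380) and in edgeR with RLE scaling (0.0490). Slc4a5 had 4.23 to 5.27 CPM in wild types and 10.1, 8.11, 6.19 and 4.59 CPM in mutants (0.52 ± 0.21, adjusted p = 0.111 in edgeR). Folr1 had 0.45 ± 0.23 (adjusted p = 0.207), whereas Clic6 (0.22), Otx2 (0.07), Aqp1 (0.00), Enpp2 (-0.02) and Kl (-0.08) had adjusted p from 0.412 to 0.999 in edgeR. Of 37 further markers, 27 were higher in mutants with a median of 0.17, Ace, the angiotensin-converting enzyme gene, rose (0.36 ± 0.10, adjusted p = 0.0202 in edgeR) and Slc4a10, a bicarbonate transporter gene, fell (-0.32 ± 0.09, adjusted p = 0.0298 in edgeR).

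Some collagen and cartilage genes rose beside Col9a3 at P75. Of 12 tested, 4 rose and 1 fell, where 7.77% of all genes rose and 6.75% fell, and with a library left out 2 to 4 rose. Those that rose were Col2a1, the chain of type II collagen (1.29 ± 0.26, adjusted p = 0.00386), Col11a2 of type XI collagen (0.66 ± 0.13, adjusted p = 0.00418), Comp, a cartilage matrix glycoprotein (1.32 ± 0.42, adjusted p = 0.0428) and Sox9, a regulator of cartilage and glial genes (0.38 ± 0.11, adjusted p = 0.0278), all in edgeR. Hapln1, a link protein of hyaluronan, fell (-0.36 ± 0.11, adjusted p = 0.0333 in edgeR). The other chains of type IX collagen did not pass: Col9a1 had 1.13 ± 0.47 (adjusted p = 0.119) and Col9a2 0.26 ± 0.20 (adjusted p = 0.447). Ependymal genes summed to 153 to 179 CPM in mutants and 116 to 149 CPM in wild types, without overlap. Genes of Bergmann glia and astrocytes (13, summed) were at 4587 to 6475 CPM in mutants and 4095 to 4508 CPM in wild types, also without overlap, and meningeal genes at 1110 to 1454 CPM and 789 to 1119 CPM. The part of these cells in the Ttr, Col9a3 and cartilage gene values was not tested.

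Whether the genotype difference changed between P42 and P75 in cerebrum was tested as an interaction over 16 libraries, and none of the 10 genes passed, where 1.4% of genes did (270 of 19273, 1.07% higher and 0.332% lower; 2689 had an unadjusted p under 0.05). Folr1 came nearest, with a difference of 1.84 ± 0.54 on the log2 scale (adjusted p = 0.115 in edgeR), followed by Kl (1.54 ± 0.48, adjusted p = 0.155). DESeq2 called both. For Col9a3 the difference was 0.11 ± 0.51 (adjusted p = 0.947 in edgeR). The count tables of P42 and P75 were separate, so age itself cannot be told apart from the table.

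Between wild type tissues at P42, 7 of the 10 genes were lower in cerebrum than in cerebellum, where 14.1% of genes were called lower and 30.4% in either direction (5468 of 17964). The log2 difference (cerebrum minus cerebellum) was -1.88 ± 0.41 for Otx2 (adjusted p = 0.00547 in edgeR), -1.69 ± 0.37 for Col9a3 (0.00652) and -1.48 ± 0.32 for Slc4a5 (0.00578). Clic6, Enpp2, Kl and Ttr also passed, with differences from -1.59 to -0.93. Folr1 (-1.18, adjusted p = 0.0505) and Aqp1 (-1.12, adjusted p = 0.0749) missed the threshold, and Prlr had 0.20 ± 0.21 (adjusted p = 0.515). For 6 of the 10 genes (Ttr, Clic6, Otx2, Enpp2, Slc4a5 and Col9a3) all cerebrum libraries lay below all cerebellum libraries, which held for 23.6% of all genes.

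Which genes passed between tissues depended on the libraries used. Without wild type cerebellum replicate 4, the only one from a female, Col9a3 had -1.0 (adjusted p = 0.0622 in edgeR) and Ttr -0.92 (0.388). Of the 7 genes, Otx2 alone stayed past the threshold. With the sex term, that fit took the tissue difference from males alone, which in cerebrum were replicates 1 and 3. The lost calls therefore cannot be laid on cerebellum replicate 4 itself. Without wild type cerebrum replicate 1, which held cerebellar RNA, the differences were larger (-2.16 for Col9a3 and -2.38 for Ttr), and Folr1 and Aqp1 passed in edgeR as well. The Ttr call also ended in DESeq2 (adjusted p = 0.0710) and without cerebrum replicate 2, 3 or 4 or cerebellum replicate 2 or 3 (0.0510 to 0.0774 in edgeR), and that of Kl without cerebrum replicate 2, 3 or 4 or cerebellum replicate 2. Of 39 further choroid plexus markers, 34 had lower and 5 higher values in cerebrum, with a median of -0.71, and edgeR called 19 lower and 2 higher, where 14.1% of all genes were called lower and 16.4% higher. Without wild type cerebellum replicate 4, again a difference from males alone, 8 were called lower and 1 higher. Without wild type cerebrum replicate 1 the counts were 27 and 3. Slc29a4, a monoamine transporter gene of the plexus, had -1.56 ± 0.20 (adjusted p = 0.000191 in edgeR).

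Over the 6 groups, Col9a3 was highest in wild type cerebellum (49.7 ± 11.2 CPM, SD, n = 4). It was followed by mutant cerebrum at P75 (25.5 ± 3.74 CPM), mutant cerebellum (23.8 ± 6.12 CPM), mutant cerebrum at P42 (18.5 ± 7.48 CPM), wild type cerebrum at P75 (16.5 ± 4.61 CPM) and wild type cerebrum at P42 (14.3 ± 9.10 CPM). From the second place on, neighbours in this order were closer than their SD. Otx2 had the same tissue at the top, with 20.4 ± 4.92 CPM in wild type cerebellum and 11.7 ± 0.960 CPM in mutant cerebellum.

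The relation between Col9a3 and each choroid plexus gene was then measured within groups, so that the difference between genotypes could not enter. For each gene the log2(CPM + 0.5) of a library was set against the mean of its own group, and the deviations of the 8 libraries of a tissue and age were correlated with those of Col9a3. Libraries were permuted within groups for an exact two-sided p (576 permutations, smallest possible p 0.00174), adjusted by Benjamini-Hochberg over the 27 relations (9 genes in 3 comparisons). Genes of 1 library share its depth and tissue composition, so the r values of the 9 genes are not independent of each other.

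In cerebellum no relation of Col9a3 with a choroid plexus gene passed the threshold. Pearson's r was 0.353 with Ttr (permutation p = 0.533, adjusted 0.731; Spearman's rho 0.357, p = 0.538), 0.337 with Kl, 0.256 with Folr1 and 0.258 with Otx2. Over the 9 genes r ranged from 0.112 (Prlr) to 0.353 with a median of 0.258, and none of the 9 had an unadjusted permutation p under 0.05. The median r of Col9a3 with all 16125 genes was 0.0572 in these libraries. Of these genes, 22.2% had a higher r than Ttr, the highest of the 9, and 44.8% than Prlr, the lowest. Without mutant replicate 1 r was 0.422 with Ttr, 0.375 with Otx2 and -0.108 with Folr1, and the median over the 9 genes was 0.0163. Without the 2 libraries farthest from the median of each gene r was 0.469 with Ttr, -0.15 with Folr1 and -0.224 with Otx2.

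The choroid plexus genes themselves varied closely together in the same libraries. Over the 28 pairs of the 8 genes other than Otx2 the median r was 0.965 and the lowest 0.857. This rested largely on mutant replicate 1: without it the median was 0.682 and the lowest -0.0891. Otx2 had negative r with the other 8 genes, from -0.428 to -0.220. Without mutant replicate 1 they ranged from -0.638 to 0.183, with a median of -0.01.

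In cerebrum at P42 Col9a3 had a positive r with all 9 genes, highest with Otx2. With Otx2 r was 0.973 (exact permutation p = 0.00174, the smallest possible, adjusted p = 0.0234), Spearman's rho was 1.0 (p = 0.00347, adjusted 0.0469), and r was 0.946 without the 2 libraries farthest from the median (exact permutation p = 0.0278). The 8 libraries were thus in the same order for both genes. With Folr1 r was 0.907 (exact permutation p = 0.0122, adjusted 0.0820; rho 0.905, p = 0.0104; 0.955 without 2 libraries). With Ttr it was 0.887 (exact permutation p = 0.0122, adjusted 0.0820; rho 0.857, p = 0.0139). Without mutant replicate 1 and wild type replicate 4 it was 0.766 (exact permutation p = 0.222). Fewer permutations were left there, so that p does not show whether the relation depended on these libraries. With any 1 library left out, r with Ttr was 0.820 to 0.930. The other genes ranged from 0.356 (Prlr) to 0.816 (Aqp1). The median over the 9 was 0.762 (Slc4a5), against a median of 0.10 over 16199 genes. Of these genes, 15.2% had a higher r with Col9a3 than Slc4a5 had, 5.29% than Ttr, 38.3% than Prlr and 0.136% than Otx2. There was 1 relation past the threshold after adjustment and 4 before. Without wild type replicate 1, the library with most cerebellar RNA, r was 0.982 with Otx2, 0.874 with Folr1 and 0.820 with Ttr. Without mutant replicate 4 the values were 0.970, 0.943 and 0.894.

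In cerebrum at P75 the relation was of similar size. Folr1 had r = 0.899 (exact permutation p = 0.00174, the smallest possible, adjusted 0.0234; rho 0.976, p = 0.00347), and 0.811 without the 2 farthest libraries (exact permutation p = 0.139). Otx2 had r = 0.930 (exact permutation p = 0.0156, adjusted 0.0844; rho 0.905, p = 0.0156), and 0.811 without 2 libraries (exact permutation p = 0.146). Ttr had r = 0.811 (exact permutation p = 0.0330, adjusted 0.127; rho 0.595, p = 0.177), and 0.320 without mutant replicate 1 and wild type replicate 3, on which the relation therefore rested. Aqp1 (0.166) and Kl (0.381) were lowest. The median over the 9 genes was 0.755 (Clic6), against 0.141 over 16100 genes. Of these genes, 5.45% had a higher r with Col9a3 than Clic6 had, 3.18% than Ttr, 48.0% than Aqp1 and 0.317% than Otx2. There was 1 relation past the threshold after adjustment and 5 before.

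**Figure D3:**
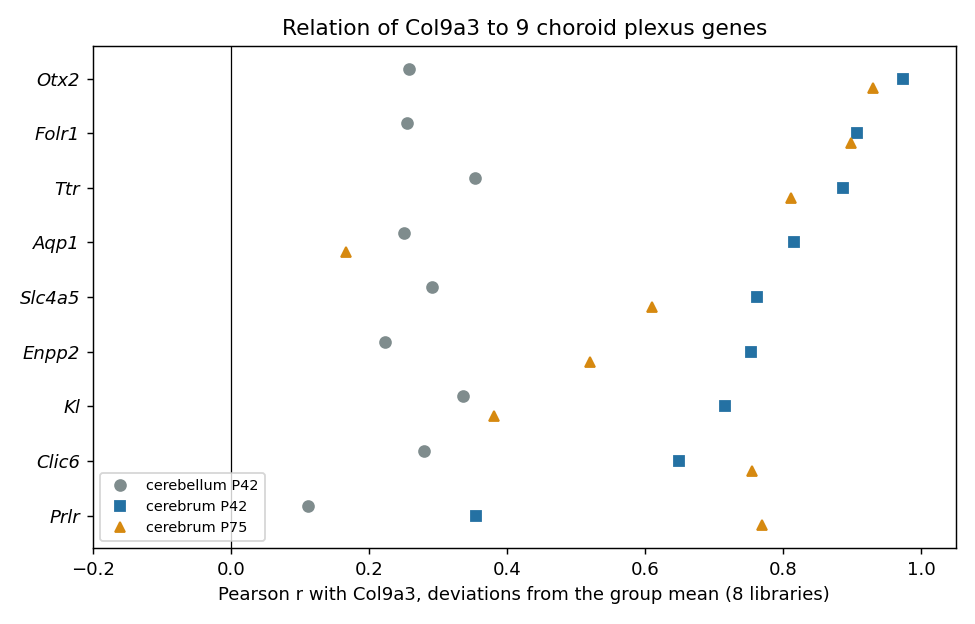
Pearson's r between Col9a3 and each of 9 choroid plexus genes, from deviations of log2(CPM + 0.5) from the group mean in 8 libraries (grey circles, cerebellum at P42; blue squares, cerebrum at P42; orange triangles, cerebrum at P75). Cerebellum values lie between 0.112 and 0.353, and cerebrum values reach 0.973 (Otx2).

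The same relation was put as a slope in edgeR's model, fitted to all genes with genotype and sex, in an analysis added after the data were seen. The slope is the log2 change of a gene per log2 unit of Ttr within a genotype. In cerebellum Kl had a slope of 0.77 ± 0.05 (SE, adjusted p = 0.00147 in edgeR), Enpp2 0.53 ± 0.04 (0.00147), Slc4a5 0.59 ± 0.07 (0.0339) and Prlr 0.78 ± 0.09 (0.0363). Folr1 (1.04 ± 0.15), Aqp1 (0.53 ± 0.08) and Clic6 (0.28 ± 0.06) missed the threshold, with adjusted p of 0.0596 to 0.0724. These 4 of 8 genes stood against 0.0851% of all genes with a called positive slope (15 of 17616, Ttr itself included). As the genes were picked with low values in mutant cerebellum in view, that count is a description.

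Col9a3 had a slope of -0.01 ± 0.04 (adjusted p = 0.833 in edgeR) and Otx2 of -0.06 ± 0.05 (adjusted p = 0.505), both near 0 while Ttr spanned 12.8 to 908 CPM among mutants. With Ttr in the model the genotype difference of Col9a3 was -1.24 ± 0.16 and that of Otx2 -1.0 ± 0.23, both about as large as without it. For Enpp2 and Slc4a5 it went to 0.06 and 0.09, for Folr1 to -0.26, for Clic6 to -0.31, for Aqp1 to -0.62 and for Kl to -0.66, and for Prlr it turned to 0.73. Without mutant replicate 1 these differences were 0.38 for Enpp2, 0.95 for Slc4a5, -0.33 for Folr1, 0.92 for Clic6, 0.19 for Aqp1, -0.66 for Kl and 0.38 for Prlr, so that the values near 0 depended on that library. Col9a3 had -1.39 and Otx2 -1.03 without it. Ttr did not overlap between genotypes (12.8 to 908 CPM in mutants and 1198 to 2184 CPM in wild types). Every genotype difference with Ttr in the model was therefore extrapolated to a Ttr level that the groups did not share. Such a value does not show the difference at equal Ttr. With Folr1 in place of Ttr, 7 of 8 choroid plexus genes had called positive slopes (3.12% of all genes did, and 4.65% had a called slope of either sign). That count is a description too. Col9a3 had a slope of -0.06 ± 0.06 on Folr1 (adjusted p = 0.587 in edgeR). The calls of slopes rested on mutant replicate 1. Without it none of the 8 slopes on Ttr passed and 0% of all genes did (0 of 18084; 1146 had an unadjusted p under 0.05), but 7 of the 8 stayed positive. Their median went from 0.56 to 0.89, with 0.77 ± 0.29 for Kl, 1.35 ± 0.26 for Clic6 and 1.35 ± 0.37 for Slc4a5, against -0.14 ± 0.28 for Col9a3.

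In cerebrum at P42 the slope of Col9a3 on Ttr was 0.58 ± 0.11 (unadjusted p = 0.000663, adjusted p = 0.449 in edgeR's model) and that of Otx2 0.72 ± 0.17. None of the 8 choroid plexus genes or Col9a3 passed there, where 0.00549% of genes did (1 of 18205, Ttr itself; 1945 had an unadjusted p under 0.05). The slope in cerebrum minus that in cerebellum, fitted over 16 libraries, was 0.59 ± 0.10 for Col9a3 (adjusted p = 0.0713 in edgeR) and 0.77 ± 0.16 for Otx2 (adjusted p = 0.0742). Both missed the threshold, as did all 19614 genes (0%; 3631 had an unadjusted p under 0.05). Without mutant cerebellum replicate 1 the difference for Col9a3 was 0.72 ± 0.44 (adjusted p = 0.845 in edgeR). A difference between the tissues in how Col9a3 followed Ttr was therefore not shown by this test.

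**Figure D4:**
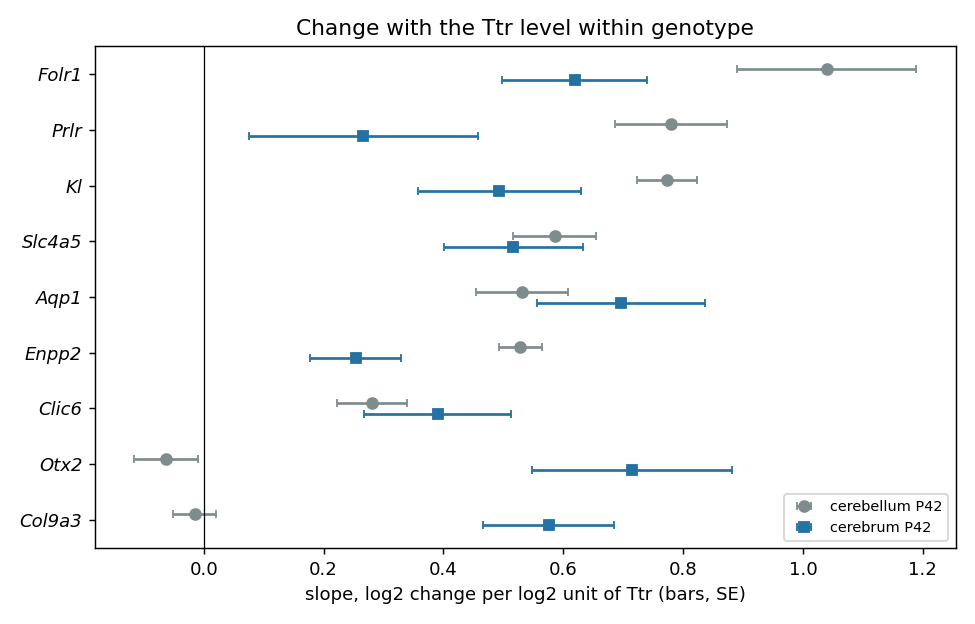
Slope of each gene on the Ttr level within genotype (log2 change per log2 unit of Ttr; bars, SE) in cerebellum (grey circles) and cerebrum (blue squares) at P42. Col9a3 and Otx2 lie at -0.01 and -0.06 in cerebellum and at 0.58 and 0.72 in cerebrum.

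Over all 24 libraries, the genes whose deviations were most like those of Col9a3 were, of 14610 genes with at least 1 CPM on average in every group, Ddr1 (r = 0.926), Vwa1 (0.915), Slc25a39 (0.912), Ptma (0.906), Scrn2 (0.90), Mid1ip1 (0.899), Fxyd1 (0.897), Sdhd (0.895), Otx2 (0.893) and Atp5e (0.892). Ddr1, a receptor tyrosine kinase for collagen, had r of 0.831 in cerebellum, 0.954 in cerebrum at P42 and 0.893 at P75, so it was close to Col9a3 in each. Otx2 ranked 9 through the cerebrum libraries (0.973 and 0.930, against 0.258 in cerebellum). Ttr ranked 2818 for Col9a3, with r = 0.514.

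The genes most like Ttr were, in contrast, choroid plexus genes: Tmem72 (0.950), Kl (0.945), Enpp2 (0.944), Slc4a5 (0.939), Folr1 (0.933), Kcne2 (0.929), Sostdc1 (0.919), Aqp1 (0.907), Kcnj13 (0.906) and Mfrp (0.905). Prlr ranked 18 and Clic6 30, while Col9a3 ranked 1366 and Otx2 3135 (r = 0.359). In cerebrum at P75 alone r with Ttr was lower for several of them, at 0.857 for Tmem72, 0.655 for Kl, 0.314 for Kcne2, 0.261 for Aqp1, 0.203 for Mfrp and 0.0492 for Kcnj13. In cerebellum, where Ttr was at 12.8 CPM in mutant replicate 1, r was 0.912 to 0.996 for these 6 genes. These r values describe the libraries and carry no test.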

How the data were processed

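The deposited tables hold raw read counts per gene as the authors counted them, 1 table for the P42 libraries and 1 for P75. The submitters' processing notes name HISAT2, DESeq2 and the build mm10, with no version numbers; which program counted the reads, and against which annotation, is not given in the sources used here. CPM values are counts-per-million of the library total, and RPKM divides them by the gene length of the tables.

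Counts were tested in R 4.3.3 with edgeR 4.0.16 (TMM scaling, filterByExpr, robust quasi-likelihood F test, two-sided, Benjamini-Hochberg over all genes tested, called at an adjusted p under 0.05), with sex as a covariate at P42. Each SE of a log2 fold change or slope was taken from edgeR's F statistic, as the absolute value divided by the square root of F. It therefore restates the test and is not a separate measure of spread. All 10 genes passed the filter in every comparison. Alternatives were DESeq2 1.42.0, RLE or library size scaling, no filter, 1 CPM in 4 libraries, no sex term, the replicate number as a block, other pseudocounts, and each library left out. Relations and figures used Python 3.11.15, numpy 2.4.6, scipy 1.17.1, pandas 2.3.3 and matplotlib 3.10.9, with a pseudocount of 0.5 CPM. The tests were checked on simulated data without an outlying library such as mutant cerebellum replicate 1 was for Ttr. That check does not cover groups with such a spread.

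The 10 genes and the marker lists were chosen with earlier results of these data known. Slopes on Ttr or Folr1, the deep brain list, and marker list counts with a library left out were added after the data were seen. Named genes were the 10, the 10 genes most like Col9a3 and Ttr over 24 libraries, and up to 4 genes of each list with the smallest p; the chains of type IX collagen and Comp were named beside them, Comp as it was among those past the threshold.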

Additional observations from a re-analysis of the deposited data

Results flagged for a closer look

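The levels of the 10 genes were screened for a library far from the other 3 of its group (its gap to the nearest one, as a share of the group's range, was above Dixon's 95% critical value for 4 samples). Of 60 groups of values, 4 held such a library, where chance gives about 1 in 20. Kl was at 72.8 CPM in wild type cerebrum at P42, replicate 1, where the next library had 36.6 CPM. Folr1 was at 12.6 CPM in that same library, with the next at 4.05 CPM. Kl was at 1.42 CPM in mutant cerebellum replicate 1, where the next lowest had 28.7 CPM. Clic6 was at 20.8 CPM in wild type cerebrum at P75, replicate 3, against 14.3 CPM in the next. In that library Col9a3 (22.9 CPM), Otx2 (6.98 CPM) and Ttr (514 CPM) were also the highest of the 4 wild types.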

How the results depend on the processing

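In cerebrum at P42, 3 genes were called; DESeq2 called 206, no filter 1312, library size scaling 0, a filter of 1 CPM 0, no sex term 1, and leaving out a library 0 to 6. At P75, 2543 were called; the count was 69 with the Ttr level as a covariate, 496 with Folr1, and 1376 (without mutant replicate 1) to 2829 when a library was left out. In cerebellum, 2 were called; DESeq2 called 25, no filter 153, no sex term 1, the Ttr covariate 1, and leaving out a library 1 to 2. The interaction of genotype and age (270 genes) gave 606 in DESeq2, 1176 without a filter, and 123 (without P75 mutant replicate 1) to 1166 (without P42 mutant replicate 1). The cause of these shifts was not tested.

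Deviations of same-numbered libraries correlated at 0.00684 to 0.281 in cerebrum at P42, 0.0422 to 0.192 at P75 and -0.402 to 0.0833 in cerebellum, so no comparison had every pair above 0.1 and the numbers were not taken as pairs. At P75 every library correlated best with its own number, a hint from the data of a weak pairing there. With the replicate number as a block, 8 genes were called in cerebrum at P42, 3680 at P75, among them Prlr (adjusted p = 0.0374 in edgeR), and 1 in cerebellum.

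Col9a3 with the choroid plexus genes gave 1 called relation each in cerebrum at P42 and at P75. The counts were 0 and 0 with any 1 library left out, where 144 permutations allow no p under 0.00694. They were also 0 and 0 without the 2 farthest libraries, where permutations were fewer still and no permutation p was under 0.0278. With so few permutations a single relation could not pass after adjustment over 27 relations. The counts of 0 therefore do not show that the calls depended on a library. The median r was 0.0402 in cerebellum and 0.485 at P75 without the 2 farthest libraries, and with 1 library left out 0.0163 to 0.544 in cerebellum, 0.582 to 0.904 in cerebrum at P42 and 0.510 to 0.812 at P75.

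Some log2 fold changes turned sign. At P75, Aqp1 had -0.0083 in DESeq2, -0.0033 with RLE and -0.0040 without a filter, Kl had 0.033 and Enpp2 0.090 with library size scaling, which moved the median of all genes to 0.11. With Ttr as a covariate at P75, Folr1 had -0.17, Clic6 -0.39, Aqp1 -0.14, Otx2 -0.40 and Col9a3 -0.057; with Folr1, Clic6 had -0.088 and Otx2 -0.26. In cerebellum, Ttr as a covariate gave Prlr 0.73, Enpp2 0.065 and Slc4a5 0.089. Folr1 as a covariate gave Ttr 1.12, Kl 0.042, Clic6 0.0031, Prlr 1.49, Enpp2 0.65 and Slc4a5 0.71 there. Ttr did not overlap between genotypes in cerebellum or at P75, nor did Folr1 in cerebellum, so the values with these covariates were extrapolated. In cerebrum at P42, Folr1 gave Ttr 0.72, Clic6 0.41, Aqp1 0.11, Prlr 0.091 and Slc4a5 0.014. The slope of Otx2 on Folr1 in cerebellum was 0.038 without mutant replicate 1. With a library left out, values ranged at P75 from -0.091 to 0.17 for Aqp1, -0.19 to 0.015 for Kl, -0.076 to 0.070 for Enpp2 and -0.040 to 0.20 for Otx2, between tissues from -0.061 to 0.32 for Prlr, and for the interaction from -0.25 to 0.44 for Col9a3 and -0.40 to 0.38 for Prlr.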
